A study of Mus musculus with 18 samples.

Results

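The 9 genes described here, Sox1, Sox2, Sox3, Pax6, Otx2, Six3, Hesx1, En1 and Egr2, encode transcription factors that divide the early neural plate into its regions. They were found by gene symbol in the gene lists of every library, and all 9 were present among the 31053 mouse genes counted. Transcripts were read as unique molecular identifiers (UMIs, 1 per captured RNA molecule) from 18 libraries of dissociated whole mouse embryos at embryonic day 8.5, all on the 129S4/SvJae background. Of these libraries 7 were wild-type (WT) and 3 were Dnmt1 KO, while Dnmt3a KO and the group labelled Dnmt3b KO had 4 each. The KO embryos are labelled as null for the gene named, came from matings of heterozygous parents and were genotyped on the ecto-placental cone. The alleles came through the germline and were not limited to a cell type.

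SOX1, SOX2 and SOX3 form the SoxB1 group, which holds neural cells in a progenitor state. OTX2, SIX3 and HESX1 act at the anterior end, where the forebrain and midbrain form, EN1 marks the midbrain and its border with the hindbrain, EGR2 (also called KROX20) marks hindbrain segments, and PAX6 is used in the forebrain, hindbrain and spinal cord. DNMT1 copies DNA methylation onto newly made strands, whereas DNMT3A and DNMT3B place it on unmethylated DNA, and the comparisons ask how the levels of these genes differ when one of the enzymes is missing.

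Several properties of the libraries bear on every comparison. The UMI total per embryo over barcodes with 1500 or more UMIs ranged from 38742721 to 314128654. Dnmt3b KO 1 and 2 shared 12249 cell barcodes, 86.5% of the first and 79.3% of the second, against at most 133 for any other pair, and were therefore counted as 1 sample, which leaves 17 embryos. Dnmt1 was read at 14.9 to 15.6 CPM (the UMIs of a gene per 1000000 UMIs of the sample) in Dnmt1 KO and at 83.7 to 114 CPM in WT. Dnmt3a was read at 7.59 to 11.8 CPM in Dnmt3a KO and at 23.5 to 34.5 CPM in WT. The libraries labelled Dnmt3b KO 11 and 12 also had low Dnmt3a, 15.1 and 7.65 CPM, whereas Dnmt3b KO 1 and 2 had 32.5 CPM each. Dnmt3b itself was read at 54.4 to 68.3 CPM in the libraries labelled Dnmt3b KO and at 35.9 to 87.1 CPM in WT, and where these tags lie relative to the disrupted part of the gene was not tested. The counts of called members and of members at an unadjusted p under 0.05 are therefore given for Dnmt3b KO with and without libraries 11 and 12, and other values for this group hold both libraries unless stated. Y-linked transcripts were near 0 in 6 of 7 WT libraries and above 50 CPM in 10 of the 11 KO libraries, so sex and genotype are largely confounded. This touches Sox3 directly, which lies on the X chromosome.

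Identity and position come from the files and from the GENCODE annotation of build GRCm38. Sox1 (ENSMUSG00000096014) spans chr8:12395295-12400126, Sox2 (ENSMUSG00000074637) spans chr3:34650405-34652461, both on the plus strand, and Sox3 (ENSMUSG00000045179) spans chrX:60891366-60893430 on the minus strand. Pax6 (ENSMUSG00000027168, chr2:105668900-105697364), Six3 (ENSMUSG00000038805, chr17:85613608-85629302), Hesx1 (ENSMUSG00000040726, chr14:26994416-27002329), En1 (ENSMUSG00000058665, chr1:120602418-120607992) and Egr2 (ENSMUSG00000037868, chr10:67535475-67542188) lie on the plus strand. Otx2 (ENSMUSG00000021848, chr14:48657677-48673819) lies on the minus strand. All 9 are protein-coding. Sox1, Sox2 and Otx2 overlap another gene on the same strand (Sox1ot, Sox2ot and Gm49154), and Pax6, Otx2 and Six3 overlap one on the other strand (Pax6os1, Otx2os1, and Six3os1 with Gm28528), so reads in the shared stretches could be counted for either gene or left out.

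Because the KO genes act on CG dinucleotides, the 250 bases before the annotated RefSeq start were read for the members on build GRCm38.p6. A RefSeq promoter was matched for 8 of the 9 members. Across all 32851 promoters the median window held 6 CG dinucleotides, and 92.1% held at least 1. For other members the count was 29 in Sox1, 19 in En1 and 10 in Six3. The windows below were chosen because they hold no annotated exon and cover the range from dense to sparse: Sox2 held 27, more than 91.4% of all promoters, the upstream Pax6 window held 15, and Hesx1 held 2. The RefSeq and GENCODE starts differ for most members. The Hesx1, Six3 and Otx2 windows lie inside the GENCODE spans given above and not before them. The same holds for the downstream Pax6 window and all but the most upstream Egr2 window. The Sox1, En1 and most upstream Egr2 windows run past the GENCODE start, whereas the Sox2 and upstream Pax6 windows end before it. The printed windows are chr3:34649745-34649994 for Sox2, chr2:105668646-105668895 for Pax6 and chr14:27000112-27000361 for Hesx1, all on the plus strand, and capitals mark each CG. Methylation was not measured in these libraries.
Sox2: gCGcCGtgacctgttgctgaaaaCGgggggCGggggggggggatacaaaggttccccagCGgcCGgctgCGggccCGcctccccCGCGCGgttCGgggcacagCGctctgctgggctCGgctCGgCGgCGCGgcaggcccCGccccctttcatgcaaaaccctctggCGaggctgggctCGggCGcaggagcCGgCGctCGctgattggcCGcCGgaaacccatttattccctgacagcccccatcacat
Pax6: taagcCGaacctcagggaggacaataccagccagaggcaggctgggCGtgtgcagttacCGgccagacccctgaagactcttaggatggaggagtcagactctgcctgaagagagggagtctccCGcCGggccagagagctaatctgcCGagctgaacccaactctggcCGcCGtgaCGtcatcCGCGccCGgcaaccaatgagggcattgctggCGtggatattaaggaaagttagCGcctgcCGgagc
Hesx1: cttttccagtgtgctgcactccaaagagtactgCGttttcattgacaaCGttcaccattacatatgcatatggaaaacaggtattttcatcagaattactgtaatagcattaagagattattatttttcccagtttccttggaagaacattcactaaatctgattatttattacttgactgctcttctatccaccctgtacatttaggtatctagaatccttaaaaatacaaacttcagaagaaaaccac

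The WT embryos were used to ask in which cells the 9 genes were read. Cells were grouped into classes by clustering without the 9 genes and without the other neural genes used below, and a class was named from separate markers. The forebrain-midbrain class was led by Rax, Fezf1 and Lhx5, and the hindbrain-spinal cord class had Crabp1, Ptn, Irx3 and Irx5 among its detected markers. The names follow these markers only. The hindbrain-spinal cord class joined 2 clusters of similar size (5.03% ± 2.24 and 4.42% ± 1.37 of kept WT cells), and the first, cluster 8, had Pax5 and Fgf15 among its leading genes, which are known from the midbrain and its border with the hindbrain. The midbrain marker Dmbx1 was read at 1.83 CPM in this class and at 0.290 CPM in forebrain-midbrain cells. Midbrain and border cells thus fall at least in part under the hindbrain-spinal cord name, and En1 and Otx2 in the 2 classes are to be read with that. In the 7 WT embryos the forebrain-midbrain class made up 2.66% ± 1.03 (SD) and the hindbrain-spinal cord class 9.48% ± 3.31 of the kept cells. Together they held most of the UMIs of each gene: 78.1% ± 6.82 for Sox1, 78.7% ± 7.80 for En1, 73.2% ± 6.66 for Pax6, 66.1% ± 5.28 for Six3, 59.04% ± 7.001 for Sox3 and 53.8% ± 6.24 for Sox2. The share varied most between embryos for Hesx1, from 24.1% to 77.01%, and for Egr2, from 35.9% to 94.1%.

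Six3, Hesx1 and Otx2 were highest in forebrain-midbrain cells. Six3 reached 325 CPM there (223 to 406 over the 7 embryos) and 2.61 CPM in hindbrain-spinal cord cells. The latter mean rests in large part on WT 4 (10.2 CPM, against 0.160 to 2.26 CPM in the others). Hesx1 reached 214 CPM (73.9 to 341) against 2.38 CPM. Otx2 reached 196 CPM (174 to 229) against 30.6 CPM, so the ranges did not overlap for any of these 3 genes. The SoxB1 genes were read in both classes. Sox2 stood at 261 CPM (199 to 314) in forebrain-midbrain and 181 CPM (148 to 209) in hindbrain-spinal cord cells, with overlapping ranges. Sox3 stood at 69.02 and 86.4 CPM, and Sox1 at 34.1 and 72.8 CPM, where the lowest hindbrain-spinal cord embryo (60.9 CPM) exceeded the highest forebrain-midbrain embryo (46.8 CPM). Pax6 was about level, at 108 and 104 CPM. En1 was read at 94.4 CPM (58.05 to 161) in hindbrain-spinal cord cells and at 2.90 CPM in forebrain-midbrain cells, and Egr2 at 10.47 CPM (8.32 to 16.01) and 0.499 CPM. For Egr2 the forebrain-midbrain mean rests in large part on WT 4 (2.10 CPM, against 0 to 0.891 CPM in the others). Values are compared within a gene only, because transcript capture differs between genes.

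The patterning genes divided the 2 clusters of the hindbrain-spinal cord class, although they had no part in the clustering. Cluster 8, whose leading genes also included Msx3 and Nkx6-2, held En1 at 190 CPM, Otx2 at 61.3 CPM, Egr2 at 19.5 CPM and Pax6 at 25.4 CPM. Cluster 11 held Pax6 at 180.04 CPM but En1 at 2.72 CPM, Otx2 at 2.68 CPM and Egr2 at 3.23 CPM. Sox1 did not separate them, at 71.99 and 74.9 CPM. A further cluster, led by Nkx2-9, Nkx6-1 and Foxa2, which mark the floor of the neural tube, was left unnamed because its leading genes went against the class to which its markers pointed. It held Sox2 at 262 CPM, Six3 at 72.96 CPM, Hesx1 at 71.2 CPM and Otx2 at 68.2 CPM.

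Outside the neural tube, Sox2 was read in neuromesodermal progenitors (NMPs, which give rise to spinal cord and trunk mesoderm) at 68.9 CPM, in surface ectoderm at 60.4 CPM and in gut endoderm at 47.1 CPM. Otx2 was read in surface ectoderm at 38.9 CPM, in notochord at 32.4 CPM, in gut endoderm at 27.8 CPM and in cranial and pharyngeal mesoderm at 23.3 CPM. Six3 reached 36.7 CPM in surface ectoderm, which gives rise to the lens, and En1 22.1 CPM in neural crest. Sox1, Pax6 and Egr2 had no class outside the neural tube above 16.5 CPM.

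**Figure D1:**
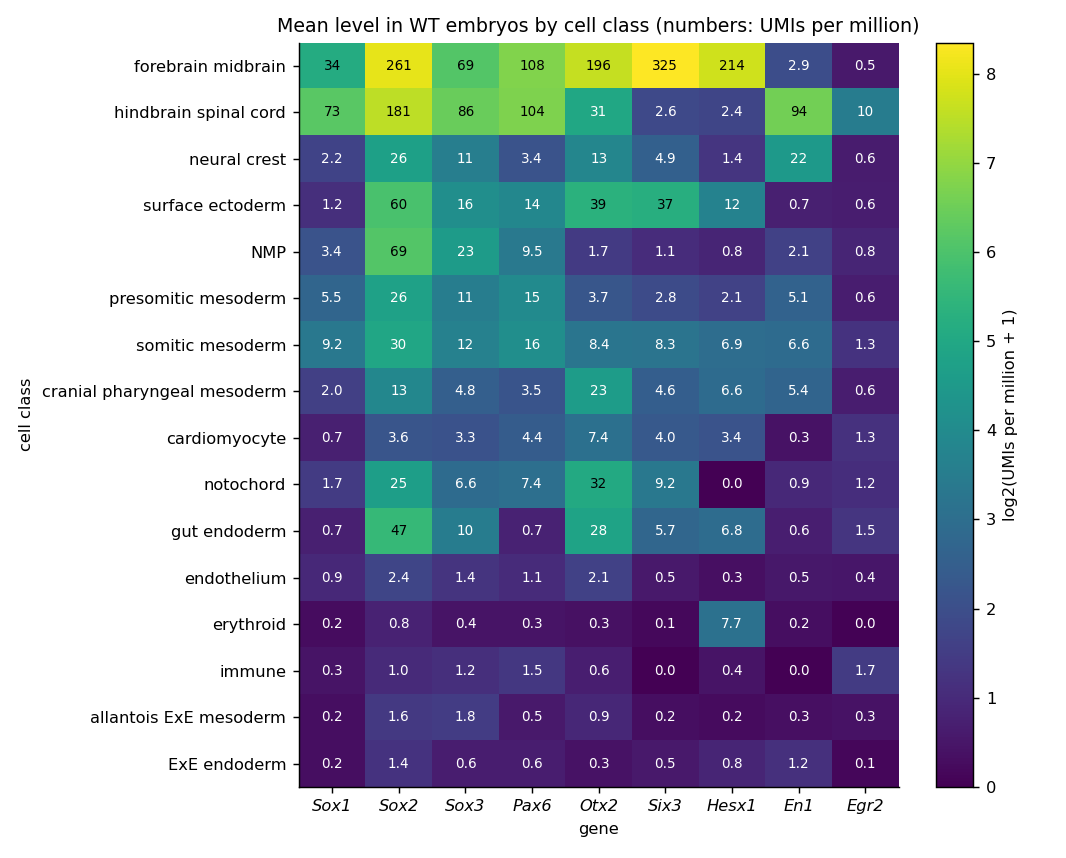
Mean level of each gene (columns) in each cell class (rows) over WT embryos with at least 25 cells of the class, printed as CPM and coloured on a log2 scale. Six3, Hesx1 and Otx2 peak in the forebrain-midbrain row, En1 and Egr2 in the hindbrain-spinal cord row, and Sox2 is spread over both rows and several classes outside the neural tube.

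Hesx1 was also read in erythroid cells. Its level there was 7.72 CPM, from 4.65 to 15.3 CPM over the 7 WT embryos. These cells held 1583 Hesx1 UMIs but 35 of Six3 and 62 of Otx2. Hesx1 made up 95.0% to 100% of the Hesx1 and Six3 UMIs in erythroid cells of each embryo, against 24.9% to 45.6% in forebrain-midbrain cells, which do not overlap. With every cell thinned to 1500 UMIs, 0.980% ± 0.722 of WT erythroid cells had a Hesx1 UMI and 0.0265% had a Six3 UMI, against 23.04% and 36.0% in forebrain-midbrain cells. The Hesx1 share was 0.0313% in the allantois class and 0.997% in gut endoderm at the same depth. Without thinning it was 20.1% in erythroid cells and 0.726% in the allantois class. Median depth was 31320 UMIs in erythroid, 32882 in allantois and 39604 in forebrain-midbrain cells. The source of the erythroid reads, including free RNA and doublets, was not tested. Erythroid Hesx1 lay between 6.15 and 13.7 CPM in Dnmt3a KO and between 1.74 and 9.96 CPM in the libraries labelled Dnmt3b KO. In Dnmt1 KO 3, the embryo of its group with at least 25 erythroid cells, there were 0 Hesx1 UMIs in 68 cells, which allows up to 6.18 CPM (3 counts, counting error only).

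Co-detection was asked in the neuroepithelial cells of the 2 classes, thinned to 10000 UMIs (3358 cells of 7 WT embryos), a depth chosen after seeing the data. The value is the number of cells with UMIs of both genes over the number given by the product of the separate shares, so that 1 means no association. Six3 and Hesx1 were found together 4.75 ± 0.785 times as often as that product, Six3 and Otx2 2.99 ± 0.417 times, and Hesx1 and Otx2 2.90 ± 0.343 times. En1 was found with Otx2 1.61 ± 0.305 times as often, but with Pax6 only 0.1002 ± 0.0860 times and with Six3 0.0952 ± 0.114 times. Egr2 was found with Otx2 0.311 ± 0.285 times and with En1 0.156 ± 0.413 times as often, the latter from 4 cells against 25.1. The SoxB1 pairs lay between 1.02 and 1.07, and Sox1 stood at 0.584 with Six3, 0.686 with Hesx1 and 0.705 with Otx2. Thinned to 1500 UMIs (3700 cells), the ratio was 4.84 ± 1.64 for Six3 and Hesx1, 2.55 ± 0.944 for Six3 and Otx2, and 0.0623 ± 0.107 for Pax6 and En1. At that depth Sox1 stood at 0.678 ± 0.548 with Six3, 0.561 ± 0.315 with Hesx1 and 1.014 ± 1.236 with Otx2. The last value rests on WT 5 (9 cells, a ratio of 3.65), without which the mean was 0.575 ± 0.466 over 6 embryos. Both classes were pooled, so differences between the classes enter these ratios.

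**Figure D2:**
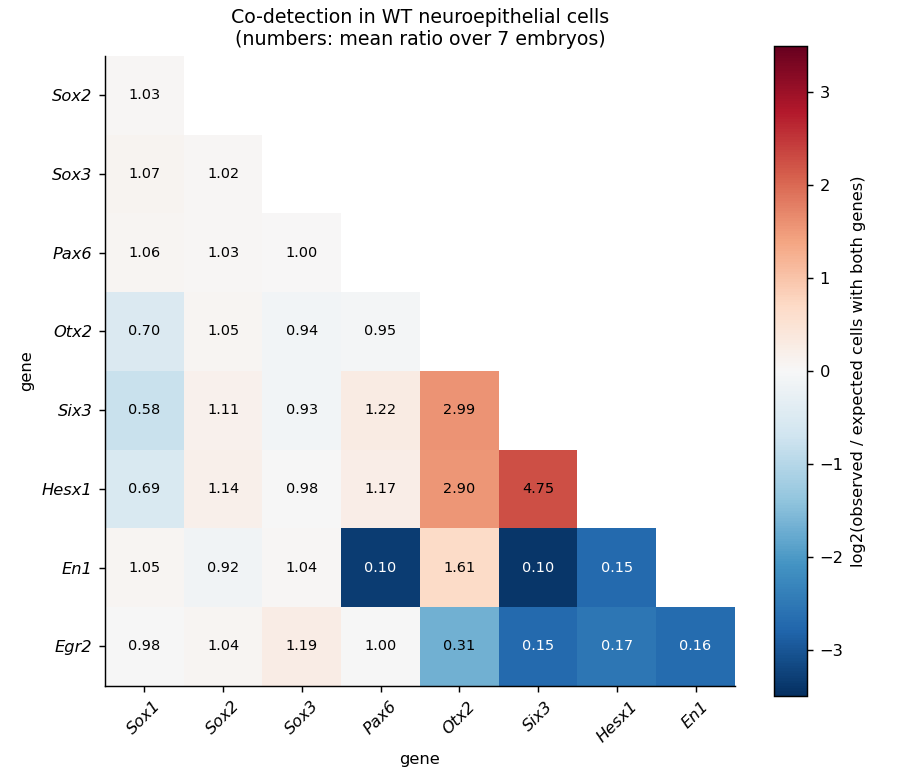
Ratio of observed to expected cells with UMIs of both genes in WT neuroepithelial cells thinned to 10000 UMIs, mean over 7 embryos, coloured on a log2 scale. The Six3, Hesx1 and Otx2 pairs lie between 2.90 and 4.75, whereas En1 lies at 0.153 or below with Pax6, Six3 and Hesx1.

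For each member, the genes with the most similar pattern over the 16 WT classes were named by Pearson's r of log2(CPM + 1). The classes share libraries and differ in depth, so r is a description. Sox2 and Sox3 were most like each other (r = 0.977), and Sox1 was most like Mir124-2hg (0.974), Pou3f2 (0.963) and Brsk2 (0.950). En1 was most like Msx3 (0.958), En2 (0.942) and Pax5 (0.904). Six3 was most like Ermn (0.932), Emx2 (0.913) and Dmrt3 (0.896), and Hesx1 like Fezf1 (0.889), Rax (0.875) and Robo3 (0.867), of which Fezf1 and Rax had named the class. Pax6 was most like Kif5a (0.944), Lmo3 (0.942) and Nfasc (0.935), Otx2 like Irs4 (0.889), Adgrv1 (0.873) and Iglon5 (0.871), and Egr2 like Ppp1r1b (0.909), Nkx6-2 (0.874) and Fam181a (0.851).

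The next comparison asks how the level in the whole embryo differed between each KO group and WT. In such sums, fewer cells of a type and less RNA per cell cannot be told apart. In Dnmt1 KO embryos 6 of the 9 genes fell, led by the midbrain gene En1 and the progenitor genes Pax6 and Sox1. Calls were made with edgeR's quasi-likelihood test and needed both an adjusted p below 0.01 and a log2 fold change (log2FC) beyond 1 or -1. Of 18870 genes tested, 14.3% were called in Dnmt1 KO, 6.09% lower, and 46% had an unadjusted p under 0.05. DESeq2 called the same number of members, where it called 15% of genes.

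En1 was read at 0.976, 0.887 and 0.555 CPM in Dnmt1 KO 1, 2 and 3, and at 5.44, 12.5 and 19.9 CPM in the lowest, median and highest WT embryo. Every Dnmt1 KO embryo lay below every WT embryo, with a log2FC of -3.91 ± 0.38 (SE, adjusted p 7.1e-07, edgeR). Pax6 was read at 1.92, 0.418 and 2.35 CPM in Dnmt1 KO against 11.02, 19.2 and 27.5 CPM in WT, a log2FC of -3.52 ± 0.43 (SE, adjusted p 8.2e-06). Sox1 was read at 1.38, 0.483 and 1.22 CPM against 6.96, 10.9 and 19.02 CPM, a log2FC of -3.36 ± 0.36 (SE, adjusted p 2.02e-06). The groups were apart for all 3 genes. How many of all genes tested had Dnmt1 KO and WT embryos apart was not counted, here or for the genes below.

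Sox2 and Sox3, the other SoxB1 genes, and the forebrain gene Six3 fell as well. Sox2 was read at 13.9, 9.54 and 22.4 CPM in Dnmt1 KO 1, 2 and 3 against 33.2, 49.9 and 69.5 CPM in WT, a log2FC of -1.59 ± 0.24 (SE, adjusted p 5.8e-05, edgeR). Sox3 was read at 6.78, 3.36 and 10.7 CPM against 12.7, 19.4 and 29.1 CPM, a log2FC of -1.33 ± 0.28 (SE, adjusted p 0.00149). Six3 was read at 3.26, 1.94 and 5.82 CPM against 6.87, 15.3 and 24.2 CPM, a log2FC of -1.92 ± 0.41 (SE, adjusted p 0.00164). No Dnmt1 KO embryo reached the lowest WT embryo for these 3 genes, and Dnmt1 KO 3 was the highest of its group for each.

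The remaining 3 genes were not called. Hesx1 was read at 5.13, 2.42 and 10.06 CPM against 6.26, 10.2 and 20.5 CPM in WT (log2FC -0.81, adjusted p 0.150, edgeR). Otx2 was read at 8.21, 5.16 and 20.9 CPM against 9.63, 16.1 and 21.3 CPM (-0.40, adjusted p 0.340). Egr2 was read at 1.67, 1.25 and 1.57 CPM against 1.14, 1.68 and 2.70 CPM (-0.09, adjusted p 0.849). The groups overlapped for all 3, and for Hesx1 and Otx2 the embryo that overlapped WT was Dnmt1 KO 3, which also had the lowest depth per barcode of its group (a median of 4823 UMIs). The count moved with the embryos and the fit, as did the share of all genes called lower. Without Dnmt1 KO 3, Otx2 was called too and the count was 7 (7.43% of genes lower). Without Dnmt1 KO 1 it was 4, with Six3 and Sox3 lost (4.83%), and without Dnmt1 KO 2 it was 5, with Six3 lost (3.44%). With a covariate for Y-linked transcripts it was 4, with Sox3 and Six3 lost (4.56%), and with a replicate block it was 5, with Sox3 lost (-1.15, adjusted p 0.0194, edgeR, 3.39%). When extraembryonic and blood classes were left out, the count was 3 (En1 -4.71, Pax6 -2.78 and Sox1 -2.50), against 4.27% of genes called lower, and Otx2 stood at 0.26.

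**Figure D3:**
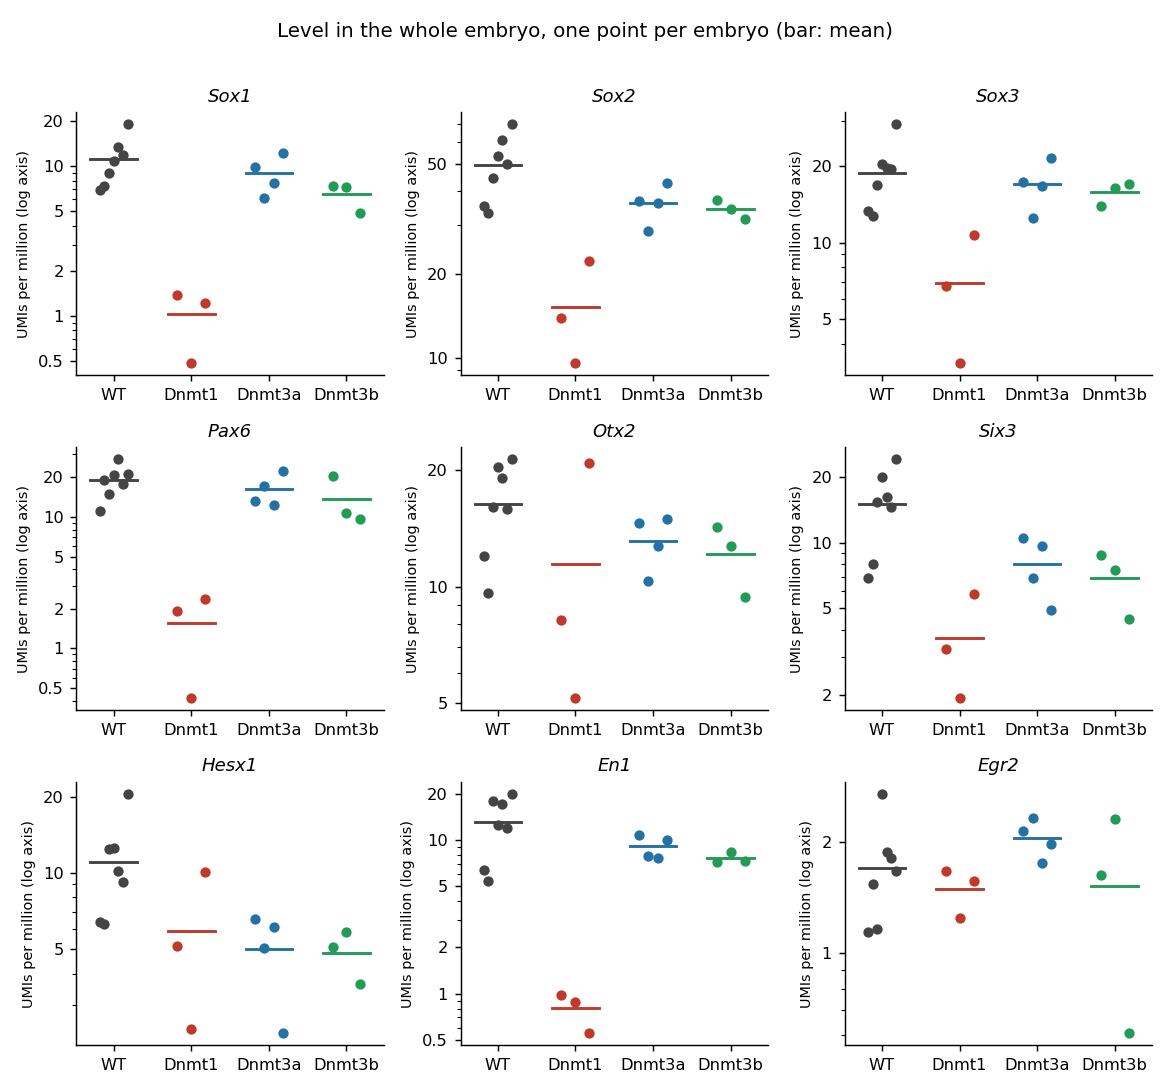
Level of each gene in the whole embryo in CPM on a log axis, with 1 point per embryo and a bar at the group mean. The 3 Dnmt1 KO embryos lie below all 7 WT embryos for Sox1, Sox2, Sox3, Pax6, Six3 and En1 and overlap WT for Otx2, Hesx1 and Egr2.

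The other genes of the same pathway were described from a list of 30. In Dnmt1 KO 17 of the 30 were called lower and 1 higher, where 6.09% of all genes were called lower, with a median log2FC of -1.32 beside 0.01 over all genes tested. With a replicate block 9 of the 30 were called lower, where 3.39% of all genes were. Of the forebrain genes 4 of 5 fell, among them Six6 (-3.81), Fezf2 (-3.58) and Lhx2 (-1.41), and Emx2 narrowly missed the fold limit. Of the midbrain and isthmus genes 5 of 6 fell: Wnt1 (-4.52), Otx1 (-2.12), Fgf8 (-2.10), En2 (-2.08) and Pax2 (-1.35). Fgf8, the signal of the midbrain-hindbrain border that is also made in the tail bud, was read at 11.01 CPM against 50.96 CPM in WT. Of the pan-neural genes 4 of 6 fell, namely Zic1 (-5.10), Hes5 (-2.48, a Notch target), Sox21 (-1.32) and Msi1 (-1.06). Of the hindbrain genes 2 of 6 fell, among them Hoxa2 (-1.73). Of the secreted inhibitors and head organiser genes, the BMP inhibitor Nog (-1.36) and the Wnt inhibitor Sfrp1 (-1.19) fell, and Cer1, which inhibits Nodal, BMP and Wnt signals, rose (1.43, from 0.980 to 2.45 CPM). The Cer1 call was lost with the Y-linked covariate, without the libraries mapped to a joint human and mouse genome, and without WT 4, WT 5 or Dnmt1 KO 3.

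Cells that were given the name of either neural class were nearly missing from Dnmt1 KO embryos. Forebrain-midbrain cells numbered 0, 0 and 1 of 1464, 3054 and 2550 kept cells in Dnmt1 KO 1, 2 and 3, and there were 0 hindbrain-spinal cord cells. A count of 0 allows a share of up to 0.205%, 0.0982% and 0.118%, counting error only. Shares were taken with 0.5 cells added, on which these differences depend. The mean log2 share differed by -6.28 and -8.65 from WT (exact two-sided permutation test, p = 0.0167 each, the smallest that 3 against 7 embryos can give, adjusted p 0.05 over 6 comparisons). Of the cells used for clustering, clusters 15, 17, 22, 24 and 28 were 93.6% to 96.7% Dnmt1 KO, and 8, 11 and 27 of the neural classes 0%. The test therefore cannot tell a loss of these cells from Dnmt1 KO cells clustering apart. With atlas mapping and added CRISPR embryos, the paper found rostral neuroectoderm overrepresented and brain and spinal cord underrepresented in Dnmt1 KO. It also found caudal epiblast overrepresented, neural crest and NMPs underrepresented, and a minor delay in stage. Its authors held that the methyltransferases are not needed for the major cell types to form at this stage. Cluster 4, which scored about alike for hindbrain-spinal cord and for epiblast and was left unnamed, with Crabp1, Crabp2 and Tubb3 among its leading genes, held 12, 35 and 386 cells of Dnmt1 KO 1, 2 and 3 (5.70% ± 8.17 of kept cells, against 3.61% ± 2.04 in WT). In its Dnmt1 KO 2 and 3 cells Sox2 was read at 73.9 and 42.3 CPM against 101 to 213 CPM in WT, Sox1 at 4.93 and 1.84 CPM against 28.4 to 65.96 CPM, and Pax6 at 0 and 1.84 CPM against 17.7 to 105 CPM, while Otx2 (24.6 and 41.4 CPM) lay within the WT range of 19.9 to 65.7 CPM. In all, 44.5% of the cells of Dnmt1 KO 3 were in unnamed clusters, against 11.95% and 8.38% in Dnmt1 KO 1 and 2. Dnmt1 KO 3 had a median of 4823 UMIs per barcode against 56928 and 33258, and 2604 of its 3635 barcodes passed the quality filters. Cells of cluster 4 had 0.265 of the median UMIs of their own embryo, and Gm42418 and AY036118, which overlap ribosomal RNA sequence, were among its leading genes. The part of depth and RNA quality in the unnamed share was not tested. Other classes moved with the genotype: extraembryonic (ExE) ectoderm made up 5.60%, 31.0% and 4.51% of the cells of Dnmt1 KO 1, 2 and 3, against 1.63% in WT 2 and at most 0.0333% in the other 6 WT embryos. Erythroid cells made up 0.956%, 0.524% and 2.67% in Dnmt1 KO and 4.88% to 22.5% in WT. Their part in the whole-embryo differences was not tested beyond leaving these classes out, as above.

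The UMIs that remained in Dnmt1 KO were read in other cells. A class named epiblast-like, from Pou5f1, Utf1, Slc7a3, Fgf5 and Pim2, held 729 cells in the 3 Dnmt1 KO embryos (11.01% ± 3.12) and 14 cells in WT. The paper lists these genes among epiblast markers raised across most Dnmt1 KO cell types, so in this group they are weak evidence of epiblast identity. At Leiden resolution 1 a cluster with the same markers, formed from 94.8% Dnmt1 KO cells, was left unnamed because of its leading genes. The class named epiblast-like held 87.9% of the Sox1 UMIs of the kept Dnmt1 KO cells (mean over 3 embryos), 83.0% of Six3, 80.1% of Sox3, 77.8% of Hesx1, 70.7% of Otx2 and 69.5% of Sox2. Of the Pax6 UMIs 39.3% lay in epiblast-like cells, 33.3% in unnamed clusters and 21.6% in cells named cardiomyocytes. Of the Egr2 UMIs 31.7% lay in epiblast-like cells, 21.4% in unnamed clusters and 20.7% in ExE ectoderm, where the share spanned 0.758% to 51.2% over the 3 embryos. En1 was mostly read in ExE endoderm (64.7%, with 31.6% in epiblast-like cells).

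In these epiblast-like cells Sox2 was read at 76.6, 87.05 and 88.5 CPM in Dnmt1 KO 1, 2 and 3, and Sox3 at 43.3, 41.1 and 42.8 CPM. Otx2, which is used in the epiblast before it is restricted to the head, was read at 41.9, 56.1 and 76.2 CPM. Hesx1 was read at 27.0, 28.6 and 39.4 CPM and Six3 at 20.9, 26.4 and 23.3 CPM. Sox1 (5.69 to 9.83 CPM), Pax6 (2.83 to 6.20 CPM), Egr2 (3.17 to 4.56 CPM) and En1 (1.13 to 2.78 CPM) were low. The forebrain genes were thus read at a fraction of their level in WT forebrain-midbrain cells. The cells compared come from differently named classes, so no test was made. Six3 and Hesx1 were found together in 41 of 672 of these cells against 12.8 by the product of their shares (a ratio of 3.21, 2.68 to 4.02 over the embryos), Otx2 and Hesx1 in 80 against 33.4, and Otx2 and Six3 in 59 against 24.8, which was chosen for calculation after the WT values were seen. The forebrain-midbrain markers summed to 63.6 CPM in these cells and to 479 CPM in WT forebrain-midbrain cells, and the epiblast markers to 336 and 90.4 CPM. The hindbrain-spinal cord markers summed to 513 CPM in the epiblast-like cells and to 2661 CPM in WT hindbrain-spinal cord cells. Of these markers Irx3 was nearly as high in the epiblast-like cells (91.8 against 94.4 CPM) and Irx5 stood at 36.8 against 48.6 CPM, so the class named epiblast-like also held transcripts of neural markers.

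**Figure D4:**
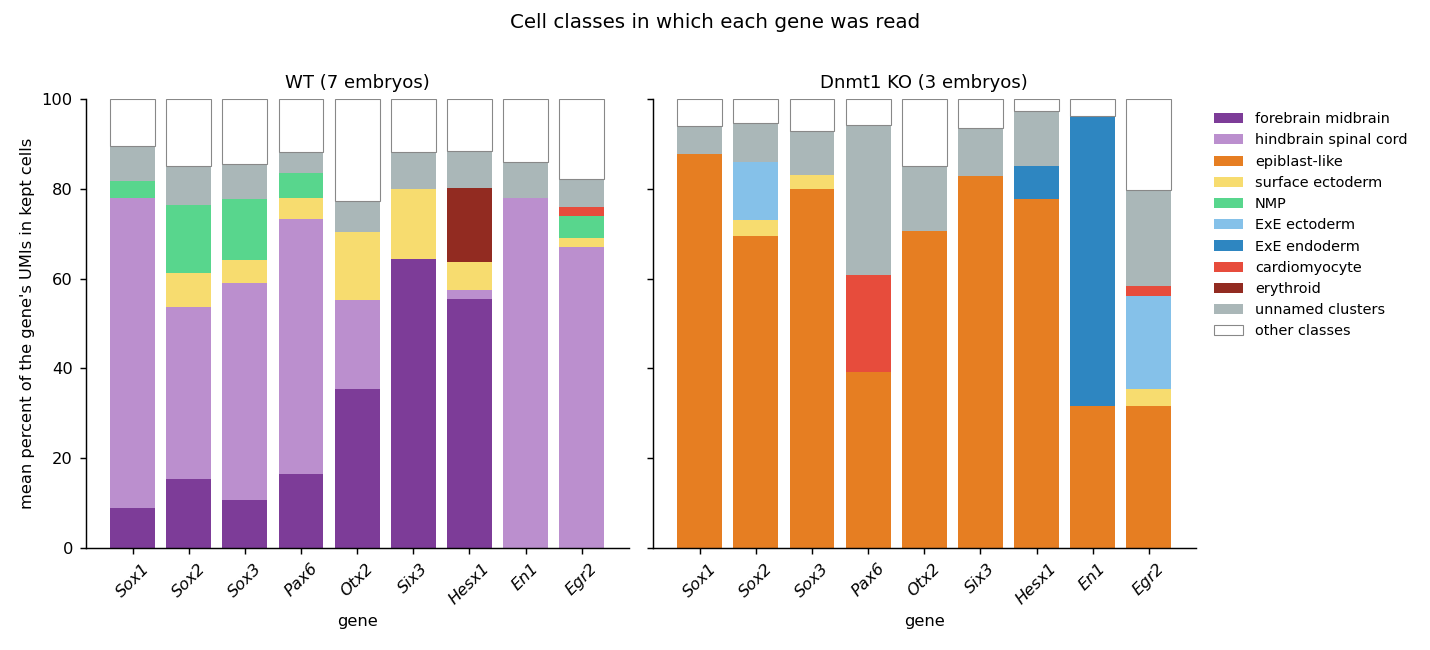
Percent of the UMIs of each gene in kept cells by cell class, mean over 7 WT and 3 Dnmt1 KO embryos. A class with a small share of a gene is drawn under other classes. In WT the neuroepithelial classes hold most of the UMIs, and in Dnmt1 KO the epiblast-like class holds between 69.5% and 87.9% for Sox1, Sox2, Sox3, Otx2, Six3 and Hesx1.

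Within classes that Dnmt1 KO embryos still had, 26 pairs of a member and a class could be tested, in 4 classes, and 1 was called, Sox2 in gut endoderm. Of all pairs of a gene and a class, 7.52% were called in Dnmt1 KO, and 12 of the 26 pairs against 39.5% of all pairs had an unadjusted p under 0.05. DESeq2 called 4 pairs, where it called 7.83% of all. Among them were Sox2 and Pax6 in ExE endoderm, which edgeR did not call (adjusted p 0.0295 and 0.0159). The source of these reads outside the neural tube was not tested. Clustering at a Leiden resolution of 1 gave 7 called of 30 pairs, where 8.65% of all were called. Of these Sox2 in gut endoderm and Sox2 and Pax6 in ExE endoderm were lower, and Otx2, Egr2, Sox2 and Pax6 in the allantois class were higher. In the classes used here Pax6 in the allantois class had the other sign (-1.49 against 1.45), so these 4 calls depend on how the class was drawn. Sox2 was read at 8.08, 8.16 and 0.520 CPM in Dnmt1 KO 1, 2 and 3, from 17, 14 and 1 UMIs in 30, 44 and 42 cells, and at 33.3 to 60.4 CPM in WT, a log2FC of -2.96 ± 0.33 (SE, adjusted p 1.7e-06, edgeR, where 3.29% of genes were called lower in gut endoderm). The class joined cells of different kinds. Dnmt1 KO gut cells were nearly all in cluster 3 (30, 38 and 37 cells), with 0, 6 and 5 in cluster 34, where WT cells held Sox2 at 125 CPM. Within cluster 3, Sox2 was read at 8.08, 7.32 and 0.595 CPM in Dnmt1 KO and at 4.95 to 29.2 CPM in WT, so the ranges overlapped. In the same cluster Otx2 was read at 12.8, 24.6 and 6.55 CPM in Dnmt1 KO and at 0 to 2.97 CPM in WT, a log2FC of 3.18 (adjusted p 1.9e-05, edgeR, an alternative added after seeing the data), where 4.19% of genes were called higher. In the whole gut class Otx2 was at 12.8, 39.7 and 25.5 CPM against 17.3 to 36.6 CPM, a log2FC of 0.03.

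The Dnmt3a KO embryos were compared in the same way. None of the 9 genes was called in the whole embryo, where 0.207% of genes were called by edgeR (0.0106% lower) and 0.585% by DESeq2, which also called no member. At an unadjusted p under 0.05, 3 members passed, against 9.41% of all genes: Hesx1, Six3 and Sox2. Hesx1 was read at 6.57, 5.03, 6.13 and 2.33 CPM in Dnmt3a KO 1, 2, 13 and 14 against 6.26 to 20.5 CPM in WT (log2FC -1.11, adjusted p 0.313, edgeR). Six3 was read at 10.53, 6.88, 9.62 and 4.91 CPM against 6.87 to 24.2 CPM (-0.88, adjusted p 0.407), and Sox2 at 36.6, 28.7, 36.1 and 42.6 CPM against 33.2 to 69.5 CPM (-0.47, adjusted p 0.466). With a replicate block, a term for each replicate number, Six3 turned to 0.18, Hesx1 stood at -0.11 and Sox2 at -0.0336, none of them called. No other group has the numbers 13 and 14, so these values rest on Dnmt3a KO 1 and 2 and libraries of the same numbers, WT 1 and WT 2 among them. WT 1 and WT 2 lay at 6.87 and 7.98 CPM for Six3 and at 6.39 and 6.26 CPM for Hesx1, at the bottom of the WT range and within or near that of Dnmt3a KO. WT 2 is the WT library with Y-linked transcripts, and WT 1 was mapped to a joint human and mouse genome, as were Dnmt3a KO 1, Dnmt3a KO 13 and Dnmt3b KO 11. No pathway gene was called.

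The libraries labelled Dnmt3b KO gave 0 called members as well, where 1.86% of genes were called by edgeR (0.0318% lower) and 2.31% by DESeq2, which called no member either. Without libraries 11 and 12, which leaves 1 sample whose spread is taken from the other groups, the count was again 0, where 87 in place of 351 genes were called. At an unadjusted p under 0.05, 5 members passed, against 17.9% of all genes: Six3 (-1.13), Hesx1 (-1.20), Sox1 (-0.80), En1 (-0.79) and Sox2 (-0.54). A replicate block, which fits a term for each replicate number, took libraries 1 and 2 as separate samples. No other group has the numbers 11 and 12, so these 2 libraries did not enter its differences. In that fit Six3 (0.0939) and Sox2 (0.0468) changed sign, and Hesx1 (-0.40), En1 (-0.25) and Sox1 (-0.0929) were nearer 0. Without libraries 11 and 12 none of the 9 passed that limit, against 4.78% of all genes, and the smallest p was that of En1 (0.0865, edgeR). Hesx1 was read at 5.07 CPM in the joined sample 1 and 2, at 5.82 CPM in library 11 and at 3.62 CPM in library 12, all below the lowest WT embryo at 6.26 CPM (adjusted p 0.153, edgeR). It was the member for which the groups did not overlap, and the share of all genes with groups apart was not counted. The adjusted p for Six3 was 0.133, with values of 8.76, 7.48 and 4.45 CPM. No pathway gene was called, with or without libraries 11 and 12. The WT embryos are the same in all 3 comparisons.

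The share of neuroepithelial cells in these groups was lower on average, but did not pass the test. Forebrain-midbrain cells made up 1.68% in Dnmt3a KO and 1.48% in the libraries labelled Dnmt3b KO against 2.66% in WT (exact permutation test, adjusted p 0.191 each). Hindbrain-spinal cord cells made up 7.39% and 6.9998% against 9.48% (exact permutation test, adjusted p 0.367 each). The lower hindbrain-spinal cord share in Dnmt3a KO rests on Dnmt3a KO 2 (2.35%, in a library with a median of 4052 UMIs per barcode), without which the mean was 9.08% and the log2 difference moved from -0.46 to 0.0197, and the forebrain-midbrain difference moved from -0.72 to -0.41. On the log2 scale the Dnmt3b KO shares differed from WT by -0.80 and -0.37. Without libraries 11 and 12 they differed by -0.95 and -0.72, which rests on 1 joined sample. In that sample 6.46% of kept cells lay in cluster 32, which was left unnamed, against 0.0666% to 1.79% in WT. Its highest scores were for NMP and forebrain-midbrain, and mt-Nd6, Rmst and Mir124-2hg were among its leading genes. Its cells had 0.235 of the median UMIs of their own embryo. The part of cluster 32 in the lower shares was not tested.

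Within cells of the classes, 113 pairs were tested for Dnmt3a KO and 103 for Dnmt3b KO, and 0 were called in either, where 0.125% and 0.771% of all pairs of a gene and a class were called. At an unadjusted p under 0.05 there were 24 and 17, against 10.0% and 15.6% of all pairs. DESeq2 called 0 and 1, where it called 0.296% and 0.939% of all pairs. Without libraries 11 and 12, 108 Dnmt3b KO pairs were tested and 0 were called, where 0.187% of all pairs were called, and 11 had an unadjusted p under 0.05, against 4.89% of all pairs. The smallest unadjusted p in forebrain-midbrain cells was that of Six3 in both groups. Six3 was read there at 227, 233, 225 and 225 CPM in Dnmt3a KO 1, 2, 13 and 14 and at 225, 225 and 168 CPM in the joined Dnmt3b KO 1 and 2, in 11 and in 12. The WT embryos lay at 223, 234, 334, 324, 350, 404 and 406 CPM in replicates 1 to 7, so all Dnmt3a KO embryos and 2 of the 3 Dnmt3b KO samples lay level with WT 1 and WT 2, Dnmt3b KO 12 lay below every WT embryo, and every KO sample lay below the other 5. The log2FC was -0.50 ± 0.15 (SE, p 0.0028, adjusted p 0.238, edgeR) for Dnmt3a KO and -0.64 ± 0.17 (p 0.000925, adjusted p 0.0789) for Dnmt3b KO. Among the 4 libraries mapped to the joint genome, Six3 was at 223 CPM in WT, 225 and 227 CPM in Dnmt3a KO and 225 CPM in Dnmt3b KO 11, and with the Y-linked covariate the values were -0.38 and -0.56.

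In forebrain-midbrain cells 0.0266% of genes were called in Dnmt3a KO and 0.462% in Dnmt3b KO. Hesx1 was read there at 121, 154, 89.3 and 39.4 CPM in Dnmt3a KO 1, 2, 13 and 14 and at 73.9 to 341 CPM in WT, a log2FC of -1.05 (adjusted p 0.277, edgeR). It was read at 108, 156 and 163 CPM in the libraries labelled Dnmt3b KO. Otx2 was read at 172 to 289 CPM in Dnmt3a KO and 151 to 172 CPM in Dnmt3b KO against 174 to 229 CPM in WT, with log2FC values of 0.09 and -0.24. Sox1 was read at 30.2, 20.1 and 17.2 CPM in the joined Dnmt3b KO sample, 11 and 12 against 25.9 to 46.8 CPM in WT (-0.61, adjusted p 0.182). Sox2 was read at 204 to 231 CPM in Dnmt3a KO and 193 to 214 CPM in Dnmt3b KO against 199 to 314 CPM in WT, and the groups overlapped. Pax6 (log2FC 0.17 and -0.27) and Sox3 (0.10 and 0.13) were not called in either group.

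**Figure D5:**
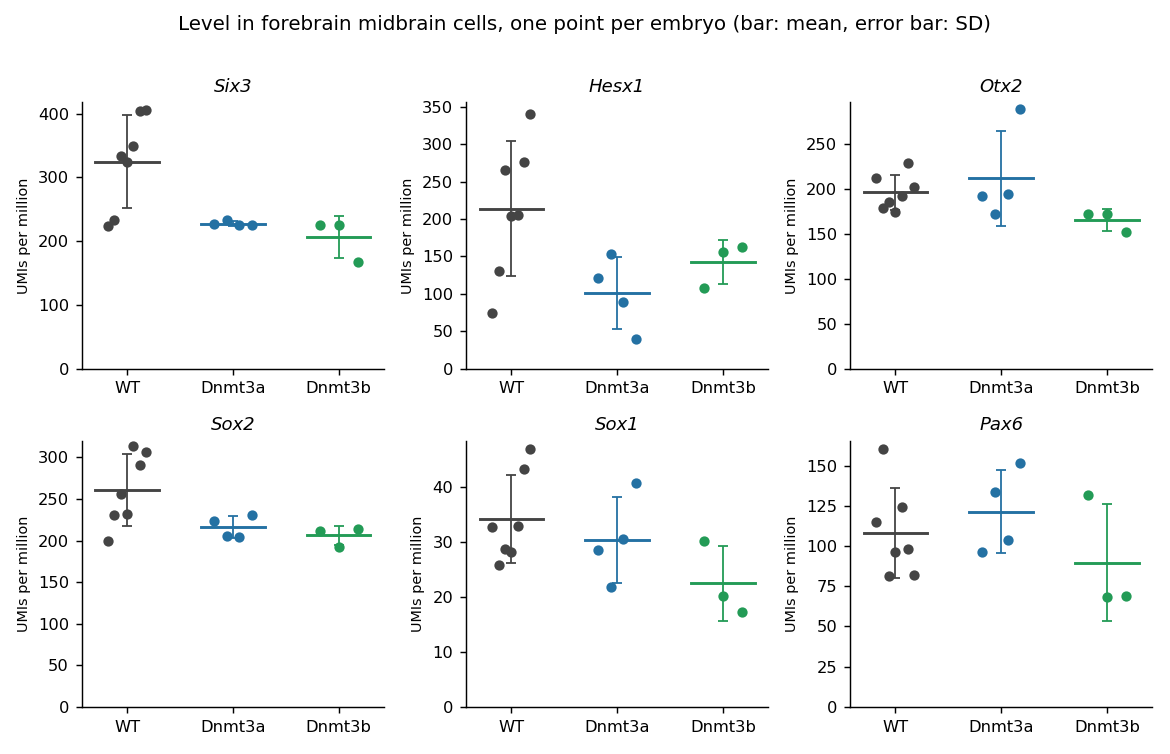
Level of 6 genes in forebrain-midbrain cells in CPM, with 1 point per embryo, a bar at the group mean and an error bar of 1 SD. The Dnmt3a KO and Dnmt3b KO points for Six3 lie at or below 233 CPM, WT 1 and WT 2 lie at 223 and 234 CPM, and the other 5 WT embryos lie at 324 CPM or above.

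In hindbrain-spinal cord cells En1 was read at 74.4 to 82.04 CPM in Dnmt3a KO, at 66.6 to 69.9 CPM in the libraries labelled Dnmt3b KO and at 58.05 to 161 CPM in WT. Egr2 was read at 10.9 to 16.5 CPM in Dnmt3a KO and at 12.1, 11.7 and 3.40 CPM in the joined Dnmt3b KO sample, 11 and 12, against 8.32 to 16.01 CPM in WT. Pax6 spanned 65.6 to 150 CPM in Dnmt3a KO, 55.2 to 152 CPM in Dnmt3b KO and 75.6 to 157 CPM in WT. None of the 9 genes was called in this class, where 0.0664% of genes were called in Dnmt3a KO and 0.737% in Dnmt3b KO. The class joined clusters 8 and 11, whose WT levels of En1, Egr2 and Pax6 differ. Their cell numbers were 276 and 147 in Dnmt3b KO 12 and 250 and 355 in the joined sample. In WT 3 they were 321 and 167, and in WT 1 they were 287 and 361, so this mix enters the class levels.

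Pax6 in cardiomyocytes was the Dnmt3b KO pair that DESeq2 called (log2FC 1.18, adjusted p 0.00927), whereas edgeR gave an adjusted p of 0.0228. It was read at 7.94, 4.99 and 14.7 CPM in the joined sample, 11 and 12, at 5.66 to 6.22 CPM in Dnmt3a KO and at 2.92 to 7.64 CPM in WT, so only library 12 lay well above WT, and 7.94 CPM lay just above it. Of the Dnmt1 KO embryos, 2 had at least 25 cells named cardiomyocytes (36 and 26 cells). Pax6 stood there at 26.2 and 17.5 CPM, from 65 and 26 UMIs. Both lay above every other embryo, and 2 embryos were too few for the test. Of the cells used for clustering, the cardiomyocyte cluster was 9.21% Dnmt1 KO here and 0.199% at Leiden resolution 1. At resolution 1 a cluster of 82.3% Dnmt1 KO cells was named allantois, with cardiomyocyte as the next class. The name of these Dnmt1 KO cells thus depends on how the class was drawn.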

How the data were processed

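The deposited values are raw UMI counts per gene and cell barcode, without normalisation. Per the study's methods, the authors mapped 10x Genomics 3' v3 reads to mm10 with Cell Ranger 5.0.0. The file headers differ from this and give Cell Ranger 3.1.0 in 17 libraries and 5.0.0 in 1. In 4 libraries (WT 1, Dnmt3a KO 1 and 13, Dnmt3b KO 11) the reference also held the human genome.

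Whole-embryo sums used barcodes with 1500 or more mouse UMIs (128881 of 162336). For classes, cells also had at most 30% mitochondrial and 35% ribosomal protein UMIs and were outside the highest Scrublet doublet scores (scanpy 1.11.5, 0.8% of cells removed per 1000 cells of a library), which kept 109962 cells, 7864 of them second copies of a shared barcode that were dropped. Leiden clusters at resolution 2 (39, of which 32 were named) left 17.7% of cells unnamed. Library medians were 4052 to 56928 UMIs.

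Each KO group was compared with WT with embryos as replicates in edgeR 4.0.16 (R 4.3.3), with its low-count filter, TMM scaling and Benjamini-Hochberg adjustment over all genes. Class sums needed 25 cells per embryo and 3 embryos per group. On data simulated for the Dnmt1 KO comparison (18559 genes), 87.6% of genes changed by 1.5 on the log2 scale and 91.5% of those changed by 2 were called. Every gene was simulated with the same dispersion and without sex or reference differences, so these rates may not hold for the members. Alternatives were DESeq2 1.42.0, RLE scaling, no filter, covariates, a replicate block and leaving out each library. The members, pathway lists and markers were chosen with earlier results of these data known. Genes named are the members, genes of the list of 30 pathway genes (some are not reported here), the targeted genes and the 3 most similar genes of each member. In edgeR the p-values set each difference against the spread between embryos, with all groups in the same fit. The p-value of a KO group thus also draws on the spread in the other KO groups.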

Additional observations from a re-analysis of the deposited data

Results flagged for a closer look

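In groups of 4 to 10 embryos, the gap between the highest or lowest embryo and its neighbour was set against the range of the group, which chance alone passes in about 1 of 20 groups, and 2 of 58 groups passed. Both were in WT 4 and concerned a gene outside its usual class. Egr2 in forebrain-midbrain cells was 2.10 CPM in WT 4 and 0 to 0.891 CPM in the other 6 WT embryos. Six3 in hindbrain-spinal cord cells was 10.2 CPM in WT 4 and 0.160 to 2.26 CPM in the others.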

How the results depend on the processing

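The 6 calls in Dnmt1 KO kept their direction under every alternative run, and the count of members called lower moved to 3 without extraembryonic and blood classes and to between 4 and 7 when 1 library was left out (3.44% to 7.43% of all genes lower). For pathway genes in Dnmt1 KO the count of genes called lower was 9 with a replicate block and 12 to 21 with 1 library left out, and the 1 gene called higher was 0 with the Y-linked covariate, 0 without the libraries counted on a combined reference and 0 to 1 with 1 library left out (lost without WT 4, WT 5 or Dnmt1 KO 3). The pairs of a member and a class called in Dnmt1 KO, with the share of all pairs called in the same fit, were 4 with DESeq2 (7.83%), 3 without the low-count filter (5.66%), 0 with at least 50 cells (7.53%, gut endoderm could then not be tested), 7 at Leiden resolution 1 (8.65%), 3 with the Y-linked (6.10%) and 3 with the reference covariate (7.28%), and 1 to 3 with 1 library left out (5.53% to 7.88%). The pairs called were 1 in Dnmt3b KO with DESeq2 (0.939%), without the filter (0.786%), at resolution 1 (0.811%) and with the Y-linked covariate (1.07%), 0 to 1 with 1 library left out (0.473% to 0.802%), and 0 to 1 in Dnmt3a KO with 1 library left out (0.0548% to 0.211%), where Sox3 in the allantois class was called without WT 2 in both groups and 1 pair in Dnmt3b KO without Dnmt3b KO 11.

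Same-numbered KO and WT embryos showed little common deviation in most cases (correlations of -0.27 to 0.21), so the replicate numbers were not taken as pairs. An exception was Dnmt3a KO 1 (0.21), for which WT 1 was the closest WT embryo. The replicate block left 5 members called in Dnmt1 KO (Sox3 was lost). It turned the sign of Egr2 in Dnmt1 KO (0.24), of Sox1 (0.0845), Sox3 (0.25), Pax6 (0.12), Otx2 (0.31), Six3 (0.18) and En1 (0.25) in Dnmt3a KO, and of Sox2 (0.0468), Sox3 (0.0639), Pax6 (0.39), Otx2 (0.42), Six3 (0.0939) and Egr2 (0.16) in Dnmt3b KO, none of them called. Without extraembryonic and blood classes Otx2 (0.26) and Egr2 (0.35) turned in Dnmt1 KO. The Y-linked covariate turned Sox3 (0.13), En1 (0.0542) and Egr2 (-0.40) in Dnmt3a KO. Without Dnmt3b KO 11 and 12, Pax6 in Dnmt3b KO was 0.0309. With 1 library left out, Egr2 ranged from -0.16 to 0.0402 in Dnmt1 KO and from -0.66 to 0.25 in Dnmt3b KO, Sox3 from -0.23 to 0.0053 in Dnmt3a KO, and the log2 share of hindbrain-spinal cord cells in Dnmt3a KO from -0.70 to 0.0197. The cause was not tested.

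Dnmt1 KO holds 3 embryos, so permutation p-values cannot go below 0.0167. Depth limits the low counts: the Sox2 call in Dnmt1 KO gut endoderm rests on 17, 14 and 1 UMIs. Alternatives concerning the libraries labelled Dnmt3b KO 11 and 12, the embryo proper, clusters and deeper thinning were chosen after seeing the data.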
